A study of Rattus norvegicus with 12 samples.

Results

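The constitutive subunits of the proteasome were examined in L6 dorsal root ganglia of the rat. They were taken as every gene probe whose accession maps to a rat symbol made of Psma, Psmb, Psmc or Psmd and a number, with the induced catalytic subunits Psmb8, Psmb9 and Psmb10 left out. The rule found 34 genes on 37 probes, of 26903 genes and unmatched accessions on 30367 probes in all. Of the 36 such genes in the RefSeq table used for names, Psmb11, the thymus form of a catalytic subunit, and the lid subunit Psmd11 matched no probe. All 34 genes passed the filter on dim probes, and 33 of them were well above background on each of the 11 arrays fitted. The exception was Psma8, the testis form of an outer ring subunit, which passed through a single dim probe on 9 arrays. No member spot was saturated.

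The arrays held total RNA of the L6 ganglion, which contains the cell bodies of sensory neurons with their glia, from Fischer 344 rats, an inbred strain, all of them male. Each of 3 groups had 4 rats. Rats of the group young_AL were 6 months old and ate normal food ad libitum, and rats of old_AL were 25 to 28 months old on the same feeding. Rats of old_CR were also 25 to 28 months old and had received food on 3 days of each week since they were 6 weeks old, about 40% fewer calories than old_AL. The labels name no agent or genetic change for any group, and no separate young group under restriction was analysed here.

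The proteasome degrades proteins tagged with ubiquitin. Its core is a barrel of stacked rings, with outer rings of alpha subunits (Psma genes) that gate the entry and inner rings of beta subunits (Psmb genes) that hold the catalytic sites. A regulatory particle on the end of the barrel has a base, with a ring of ATPases (Psmc genes) that unfold the substrate, and a lid (Psmd genes) that removes the ubiquitin chain. The core is assembled with either of 2 sets of catalytic subunits. Psmb6, Psmb7 and Psmb5 are the constitutive set, and Psmb9, Psmb10 and Psmb8 take their respective places in the immunoproteasome, which interferon induces. Neurons, which do not divide, rely on the constitutive form to clear damaged proteins. The transcription factor Nfe2l1 activates proteasome subunit genes together when proteasome activity is short, through antioxidant response elements in their promoters.

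The promoters of the catalytic set are shown because these genes are compared pair by pair below, and that of Psmb9 stands beside them as an induced counterpart. Each is the RefSeq window on build GRCr8 from 250 bases before to 50 bases after the start of the gene, read on the strand of the gene. The windows lie at chr15:32047330-32047629, minus strand (Psmb5), chr10:55737638-55737937, plus strand (Psmb6), chr3:42827421-42827720, minus strand (Psmb7) and chr20:4668750-4669049, plus strand (Psmb9). Capitals mark matches on either strand to the core of the antioxidant response element, TGACNNNGC, or to the CCAAT box, CCAAT, which reads ATTGG on the other strand. The letters of these motifs do not overlap in the 4 windows.
Psmb5: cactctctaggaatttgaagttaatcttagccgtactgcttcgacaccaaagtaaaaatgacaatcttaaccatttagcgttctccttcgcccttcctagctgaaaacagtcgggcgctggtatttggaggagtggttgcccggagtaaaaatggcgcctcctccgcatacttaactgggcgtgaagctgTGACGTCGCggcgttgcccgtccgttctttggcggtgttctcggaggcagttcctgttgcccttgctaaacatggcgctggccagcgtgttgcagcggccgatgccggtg
Psmb6: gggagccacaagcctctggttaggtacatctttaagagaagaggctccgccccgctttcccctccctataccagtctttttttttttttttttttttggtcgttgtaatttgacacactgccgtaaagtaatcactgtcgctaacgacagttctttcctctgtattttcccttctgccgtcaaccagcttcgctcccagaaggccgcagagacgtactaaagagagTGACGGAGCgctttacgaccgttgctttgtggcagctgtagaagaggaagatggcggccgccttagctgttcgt
Psmb7: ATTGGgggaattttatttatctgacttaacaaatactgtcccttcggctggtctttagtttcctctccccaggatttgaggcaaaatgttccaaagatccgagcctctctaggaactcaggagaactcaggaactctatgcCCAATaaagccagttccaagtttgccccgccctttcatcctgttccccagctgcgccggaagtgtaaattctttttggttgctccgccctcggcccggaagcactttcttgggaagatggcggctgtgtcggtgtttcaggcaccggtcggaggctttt
Psmb9: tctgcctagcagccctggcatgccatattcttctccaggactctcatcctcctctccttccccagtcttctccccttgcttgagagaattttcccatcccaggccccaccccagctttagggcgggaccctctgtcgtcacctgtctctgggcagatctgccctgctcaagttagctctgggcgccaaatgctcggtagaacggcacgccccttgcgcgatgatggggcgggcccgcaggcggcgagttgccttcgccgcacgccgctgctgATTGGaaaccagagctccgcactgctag
The element core stood at bases -60 to -52 of Psmb5 and at -24 to -16 of Psmb6, counted from the gene start, both on the strand of the gene. Neither the Psmb7 nor the Psmb9 window held those letters. Of the 34 members, 30 had a promoter in the table, and Psma7, Psmd6, Psmd12 and Psmd14 had none. The element core was found in 7 of the 30 (Psma3, Psmb2, Psmb5, Psmb6, Psmd1, Psmd3 and Psmd9), or 23.3%, against 12.1% of all 33469 promoters of that length. The CCAAT box was found in 16 of the 30, or 53.3%, against 37.5% of all promoters. A member counted if any of its promoters matched, while all promoters were counted singly, so the shares differ in unit. These matches are a description of letters and not of binding.

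One array, old_AL 1, differed in quality from the rest. The 75th percentile of signal reached 7327 there and 2627 to 3103 elsewhere. Uneven spots numbered 4369 there and 1 to 215 elsewhere, and it correlated with other arrays at a median of 0.929, where they had 0.971 to 0.994. Proteasome subunits showed the same. Against the mean of the young arrays, the 33 members other than Psma8 lay between -0.19 and 0.18 on the log2 scale on each of the other 11 arrays, but between -2.75 (Psmc4) and 2.41 (Psmd2) on old_AL 1. Values below are therefore from the 11 other arrays, with n = 4, 3 and 4 in young_AL, old_AL and old_CR, and results with old_AL 1 are given beside them. The young arrays lay on a slide of their own, and within the other slide the old_AL and old_CR arrays filled a row each. Age and slide cannot be told apart, nor can diet and row in old rats. Of the 14 sensory neuron markers on a list, 12 had a probe, and all 12 were well above background on every array.

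**Figure D1:**
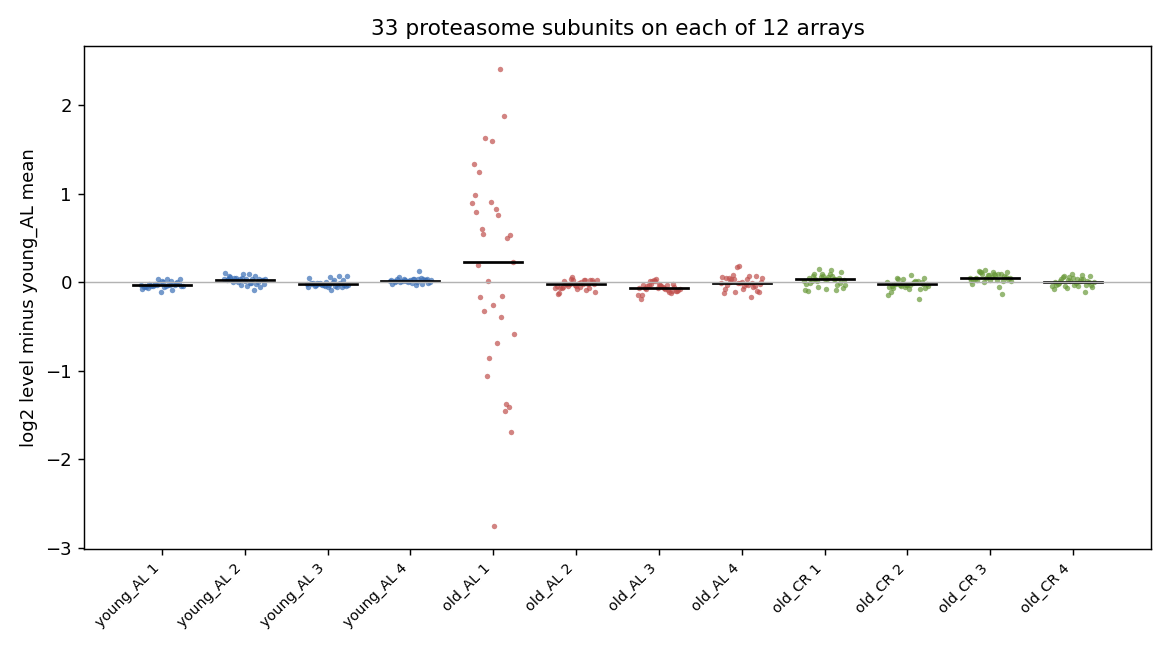
Log2 level of each of 33 constitutive proteasome subunits on each of 12 arrays, minus the mean of that subunit over the 4 young arrays; black lines are medians over the subunits. On old_AL 1 the points run from -2.75 to 2.41, and on each of the other 11 arrays they stay between -0.19 and 0.18.

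Transcripts of the constitutive proteasome differed little between the groups. A level here is log2 of the scanner's processed signal minus the log2 of the 75th percentile of its array, and a difference is that of 2 group means with its standard error. Of the 34 genes, 0 rose and 0 fell in each of the 3 comparisons at an adjusted p under 0.05 (limma, Benjamini-Hochberg over the 20848 genes tested). At an unadjusted p under 0.05, 2 genes were lower in old_AL than in young_AL, 5 were higher in old_CR than in old_AL, and 2 were higher and 1 lower in old_CR than in young_AL. Of the 20848 genes tested, 3030 were higher and 1772 lower in the first comparison at that unadjusted threshold (limma). In the second 1455 were higher and 4025 lower, and in the third 1424 were higher and 2397 lower. At the adjusted threshold, 2.99%, 1.06% and 2.32% of all genes tested passed in these comparisons, in that order, so that about 1 of 34 genes or fewer would be the same share. On all 12 arrays the members called were again 0, with 0.0287%, 0.00478% and 0.0143% of all genes.

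The size of difference that these arrays leave room for was small. Standard errors of the 33 members other than Psma8 ran from 0.032 to 0.063 with age. Over these members, the 95% interval reached at most 0.23 with age (Psma3), 0.25 with restriction (Psmd14) and 0.22 between old_CR and young_AL (Psmd7). Those bounds are 1.17-fold, 1.19-fold and 1.16-fold. A p that misses the threshold does not show equal levels, and the intervals hold for these arrays and this scaling. With old_AL 1 in the fit they are wider. The standard error of Psma3 was 0.036 with age on 11 arrays and 0.22 on 12, and that of Psmc4 was 0.041 and 0.51.

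The direction of most members was shared, and depended on the scale. With age, 26 of the 34 differences were below 0, with a median of -0.03, while the median over all genes was 0.04. With restriction, 27 of 34 were above 0, with a median of 0.04 against -0.06 over all genes. Between old_CR and young_AL, 23 were above 0, and the medians were 0.02 and -0.02. The members lie among the bright probes, since 89.2% of all genes tested were dimmer than their median level. Over the 8562 genes within their range of levels the medians were -0.01, 0.01 and -0.00, in the same order. On 12 arrays the medians of the members were 0.07, -0.02 and 0.02, so that their direction with age and with restriction turned.

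Centring each array on its median instead of its 75th percentile moved the median of all genes by -0.16 with age and by 0.17 with restriction. On that scale the members' median was -0.19 with age, -0.13 over all genes, and 0.21 with restriction, 0.12 over all genes. Of the 34, 11 then fell with age and 0 rose, beside 16.3% of all genes called, and 19 rose with restriction and 0 fell, beside 15.8% (limma, adjusted p under 0.05). Between old_CR and young_AL 0 were called, beside 0.916% of all genes. Both scales subtract 1 constant per array, so the gap between the members' median and that of all genes is the same on both by construction, at -0.07 with age and 0.09 with restriction. Under quantile normalization the gap was -0.01 and 0.02, and on 12 arrays it turned, to 0.11 and -0.05. Which of the scales holds was not tested.

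**Figure D2:**
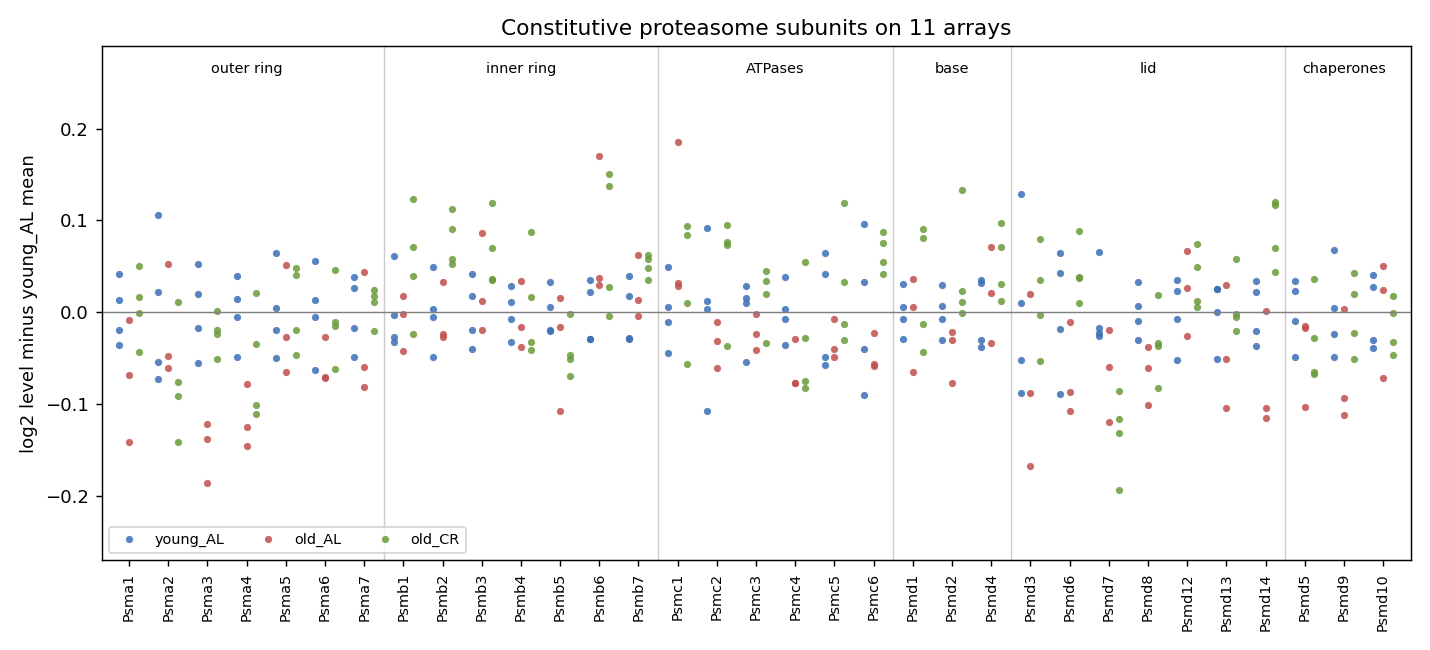
Log2 level of 33 constitutive subunits, grouped by role, on the 11 arrays fitted, minus the mean over the 4 young arrays; each point is an array, coloured by group. All points lie between -0.19 and 0.18, and the 3 old_AL points lie below all young points for Psma3, Psma4 and Psmd8.

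Among the outer ring subunits, 7 of 8 were lower in old_AL than in young_AL, with a median difference of -0.04, and 0 passed the test. The largest difference with age among the 33 members was that of Psma3. Its level was 0.55, 0.62, 0.65 and 0.58 on the young arrays, 0.46, 0.42 and 0.48 on the old_AL arrays, and 0.58, 0.55, 0.58 and 0.60 on the old_CR arrays. All 3 old_AL arrays were lower than every young and every old_CR array, while the old_CR and young_AL arrays overlapped. The difference with age was -0.15 ± 0.036 (1.11-fold lower, adjusted p = 0.0578, limma) and that with restriction 0.13 ± 0.036 (adjusted p = 0.0869), so neither passed. Psma3 did pass with age under quantile normalization, median centring, normexp background correction and array weights (adjusted p = 0.0301, 0.0179, 0.0457 and 0.0351, limma). With restriction it passed under median centring, normexp and array weights (adjusted p = 0.0343, 0.0485 and 0.0444, limma). On 12 arrays the differences were 0.13 ± 0.22 and -0.16 ± 0.22, since old_AL 1 read 1.58. In processed signal, Psma3 measured 4441 ± 320 (SD, n = 4) in young_AL, 3671 ± 156 (SD, n = 3) in old_AL and 4418 ± 262 (SD, n = 4) in old_CR. Processed signals here and below are not scaled between arrays, so their group means also carry the brightness of the arrays. The 75th percentile was 2727 to 3072 on the young arrays, 2627 to 2733 on the old_AL arrays fitted and 2723 to 3103 on the old_CR arrays.

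Psma4, another outer ring subunit, read 2.60, 2.68, 2.64 and 2.66 in young_AL, 2.52, 2.50 and 2.57 in old_AL, and 2.54, 2.53, 2.67 and 2.61 in old_CR. The old_AL arrays again lay below all young arrays, and the old_CR arrays overlapped both groups. Its difference with age was -0.12 ± 0.042 (adjusted p = 0.148, limma). Psma2 was lowest in old_CR, at 2.12, 2.07, 2.22 and 2.13, against 2.14, 2.32, 2.16 and 2.23 in young_AL and 2.16, 2.15 and 2.26 in old_AL. Its groups overlapped, and the difference between old_CR and young_AL was -0.07 ± 0.052 (adjusted p = 0.499). Psma1, Psma5, Psma6 and Psma7 differed with age by -0.07, -0.01, -0.06 and -0.03, and by 0.01, 0.01, -0.01 and 0.01 between old_CR and young_AL.

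Psma8 was near background throughout. Its level was between -6.71 and -6.17 on 10 of the 11 arrays and -3.61 on old_AL 2, and the difference with age of 0.81 ± 0.64 (adjusted p = 0.465, limma) rests on that array. Its other probes were above background on 2 and 0 arrays and gave differences of -0.64 and 0.26. It is left out of ranges of differences over the members where 33 are counted.

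The 7 inner ring genes measured had a median difference with age of -0.01 and ran from -0.04 to 0.08. Psmb6, which carries the caspase-like site, read 2.40, 2.46, 2.40 and 2.45 in young_AL, 2.46, 2.46 and 2.60 in old_AL and 2.58, 2.42, 2.56 and 2.45 in old_CR. Its unscaled processed signal was 15740 ± 1246 (SD, n = 4), 15236 ± 1132 (SD, n = 3) and 16771 ± 735 (SD, n = 4). The groups overlapped, and the difference with age was 0.08 ± 0.052 (95% interval -0.04 to 0.20, limma).

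Psmb7, the trypsin-like subunit, read 2.56, 2.49, 2.49 and 2.53 in young_AL, 2.58, 2.53 and 2.51 in old_AL, and 2.57, 2.55, 2.56 and 2.58 in old_CR. Its unscaled processed signal was 16732 ± 883, 15586 ± 409 and 17536 ± 1021 (SD, n = 4, 3 and 4). The 4 old_CR arrays had an SD of 0.012 and overlapped the young arrays. Psmb5, the chymotrypsin-like subunit and the target of bortezomib, read 3.93, 3.95, 3.92 and 3.98 in young_AL, 3.93, 3.96 and 3.84 in old_AL, and 3.89, 3.90, 3.94 and 3.87 in old_CR. Its unscaled processed signal was 45089 ± 3286, 40234 ± 1028 and 44211 ± 1681 (SD, n = 4, 3 and 4). The groups overlapped for both genes, with differences with age of 0.02 ± 0.032 and -0.04 ± 0.038.

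Psmb2, a non-catalytic inner ring subunit, was the member of this ring whose old_CR arrays stood above both other groups. It read 2.97, 3.06, 3.01 and 3.02 in young_AL, 2.99, 2.99 and 3.05 in old_AL, and 3.10, 3.07, 3.13 and 3.07 in old_CR. The difference was 0.08 ± 0.035 from old_AL (adjusted p = 0.170, limma) and 0.08 ± 0.032 from young_AL (adjusted p = 0.239). Psmb1, Psmb3 and Psmb4 differed between old_CR and young_AL by 0.05, 0.06 and 0.01, with overlapping groups.

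In the base of the regulatory particle, 5 of 6 ATPases were below 0 with age and 5 of 6 above 0 with restriction, and 0 passed in either. Psmc1 was the ATPase above 0 with age, at 0.08 ± 0.053 (adjusted p = 0.380, limma). It read 2.66, 2.72, 2.62 and 2.67 in young_AL, 2.70, 2.70 and 2.85 in old_AL and 2.76, 2.61, 2.75 and 2.68 in old_CR, where old_AL 4 was highest. Psmc6 read -0.03, -0.04 and -0.00 in old_AL and 0.08, 0.10, 0.11 and 0.06 in old_CR, without overlap, for a difference of 0.11 ± 0.045 (adjusted p = 0.163). The young arrays of Psmc6 spread over both, from -0.07 to 0.12. Of the base scaffolds, Psmd2 also had no overlap between old_CR and old_AL, at 0.08 ± 0.040 (adjusted p = 0.209). Psmd1 and the ubiquitin receptor Psmd4 differed by 0.04 and 0.03 in that comparison.

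The largest difference with restriction among the 33 members was that of a lid subunit. Psmd14, the deubiquitinating enzyme that releases the ubiquitin chain, read 0.56, 0.61, 0.55 and 0.62 in young_AL, 0.59, 0.48 and 0.47 in old_AL, and 0.70, 0.63, 0.70 and 0.65 in old_CR. All 4 old_CR arrays lay above every other array fitted. The difference was 0.16 ± 0.040 from old_AL (1.12-fold higher, adjusted p = 0.0719, limma) and 0.09 ± 0.037 from young_AL (adjusted p = 0.253). On 12 arrays the first was 0.01 ± 0.13. Psmd14 passed with restriction under median centring, normexp and array weights (adjusted p = 0.0346, 0.0209 and 0.0447, limma). It passed too when old_AL 2 was left out in addition, and was the only member called in any fit that left out 1 further array.

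Psmd7, the inactive partner of Psmd14 in the lid, differed in the other direction. It read 1.37, 1.37, 1.46 and 1.38 in young_AL, 1.38, 1.28 and 1.34 in old_AL, and 1.31, 1.20, 1.27 and 1.28 in old_CR. The old_CR arrays lay below all young arrays, at a difference of -0.13 ± 0.038 (1.10-fold lower, adjusted p = 0.106, limma). Against old_AL it was -0.07 ± 0.041, with overlap. The difference between Psmd14 and Psmd7 in response was not tested.

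Psmd6 read 3.89, 3.87 and 3.96 in old_AL and 4.01, 3.98, 4.06 and 4.01 in old_CR, a difference of 0.11 ± 0.045 without overlap (adjusted p = 0.162, limma), and 3.88, 4.04, 3.96 and 4.02 in young_AL. Psmd8 was lower in all 3 old_AL arrays (2.01, 1.97 and 2.03) than in the young arrays (2.04, 2.08, 2.06 and 2.11), at -0.07 ± 0.035 (adjusted p = 0.285). Psmd3, a lid scaffold, varied most of the 33 members between rats of a group, at 0.53, 0.43, 0.46 and 0.64 in young_AL, 0.54, 0.43 and 0.35 in old_AL, and 0.55, 0.51, 0.46 and 0.60 in old_CR. Its difference with age was -0.08 ± 0.063 (adjusted p = 0.472). Psmd12 and Psmd13 differed by 0.02 and -0.04 with age, with overlap. The assembly chaperones of the base, Psmd5, Psmd9 and Psmd10, differed by -0.04, -0.07 and 0.00 with age and overlapped in every comparison. The second probe of Psmd9 gave -0.06 where the probe used gave -0.07.

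Groups without overlap were counted over the 34 members. With age 3 were lower (Psma3, Psma4 and Psmd8) and 0 higher, beside 7.54% and 11.9% of all genes tested. With restriction 6 were higher (Psma3, Psmb2, Psmc6, Psmd2, Psmd6 and Psmd14) and 0 lower, beside 8.02% and 15.3%. Between old_CR and young_AL 2 were higher (Psmb2 and Psmd14) and 1 lower (Psmd7), beside 5.53% and 10.3%. Of the 8562 genes within the members' range of levels, 1029 were lower and 917 higher without overlap with age. With restriction 1251 of these genes were higher and 1087 lower, and between old_CR and young_AL 541 were higher and 906 lower. The comparisons share arrays, so a member that is low in old_AL enters both of the first counts, as Psma3 does.

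**Figure D3:**
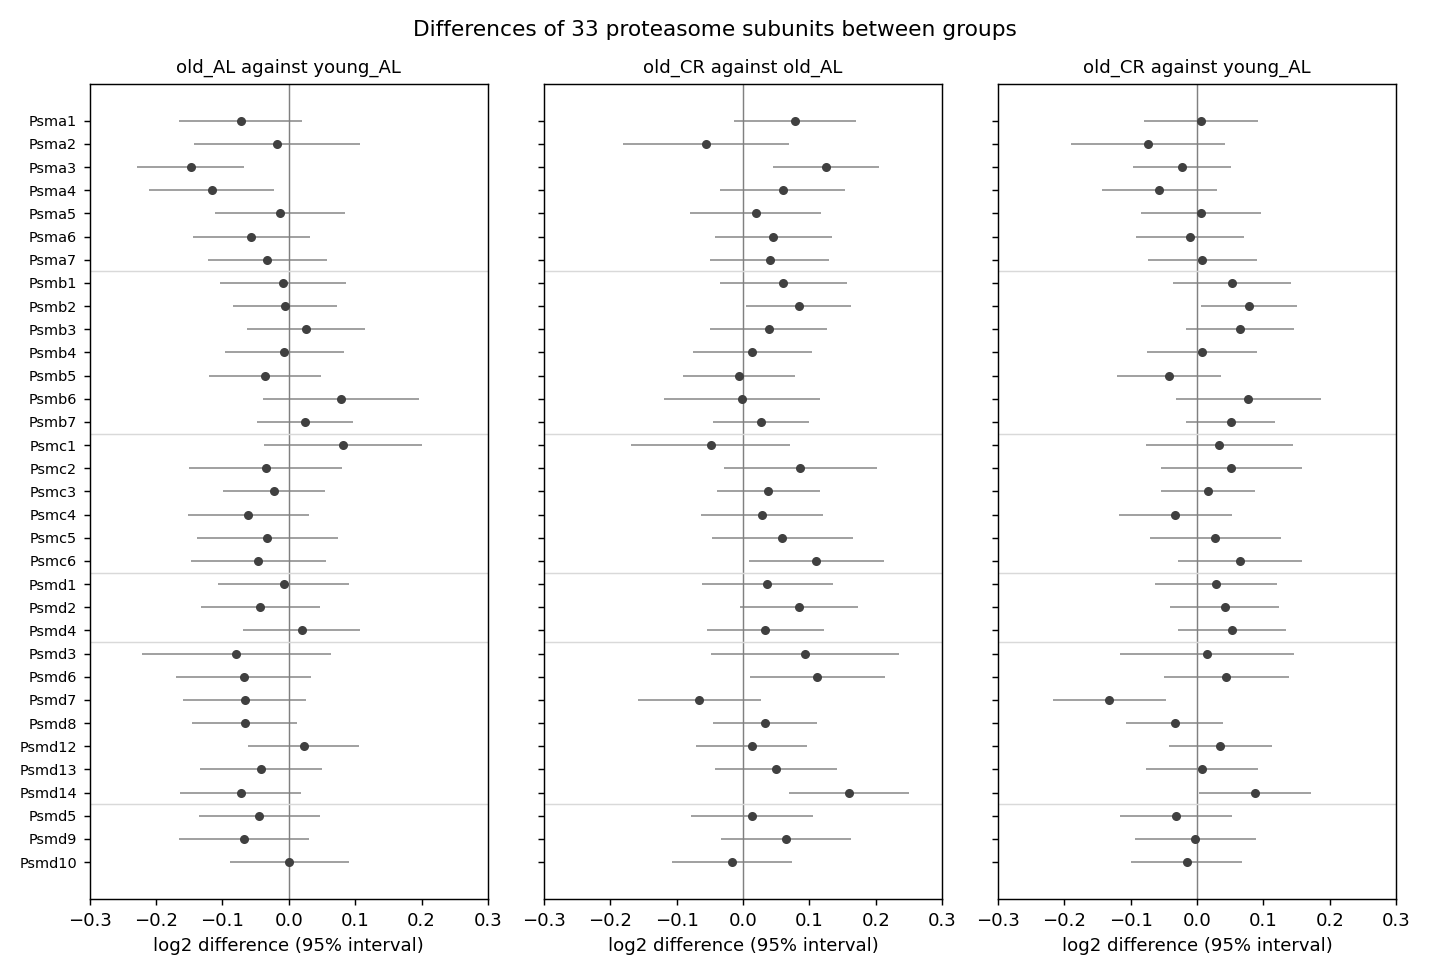
Log2 difference of 33 constitutive subunits between groups with its 95% interval from limma on 11 arrays, one panel per comparison, with lines between the roles. The intervals reach at most 0.25 from 0; Psma3 is the lowest with age (-0.15), Psmd14 the highest with restriction (0.16) and Psmd7 the lowest between old_CR and young_AL (-0.13).

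The members varied little between rats of a group. Their residual standard deviation on the log2 scale had a median of 0.045, from 0.028 (Psmb7) to 0.082 (Psmd3), against a median of 0.10 over all genes and 0.064 over genes in their range of levels. Of the genes in that range, 18.5% had a residual standard deviation below the members' median. Deviations from the group means correlated with a median of 0.41 between pairs of members over the 11 arrays, and 423 of 528 pairs were above 0. These points share array, scaling and brightness, and the correlation is given as a description. The median of the 33 members against the young mean was -0.03, 0.03, -0.02 and 0.02 on the young arrays, -0.02, -0.06 and -0.01 on old_AL, and 0.03, -0.02, 0.05 and 0.00 on old_CR.

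Of the catalytic subunits that interferon induces, Psmb9 and Psmb8 varied more between young rats (SD 0.31 and 0.42) than the constitutive Psmb6 and Psmb5 (SD 0.034 and 0.025), and Psmb10 did not (SD 0.012). Psmb9 read 0.09, -0.63, -0.52 and -0.34 in young_AL, 0.26, 0.22 and -0.00 in old_AL, and 0.08, -0.27, -0.37 and -0.31 in old_CR. The 3 old_AL arrays were above 3 of the 4 young arrays, and young_AL 1 lay between them. The difference with age was 0.51 ± 0.17 (adjusted p = 0.124, limma) and with restriction -0.38 ± 0.17 (adjusted p = 0.194). Psmb8 followed the same order, at 0.52 ± 0.22 with age (adjusted p = 0.205) and -0.35 ± 0.22 with restriction (adjusted p = 0.336). Psmb10 differed by 0.01, -0.02 and -0.01 in the 3 comparisons, with standard errors of 0.026 to 0.028. On 12 arrays the differences with age were 0.07 ± 0.36 for Psmb9 and 0.32 ± 0.25 for Psmb8.

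The ratio of each induced subunit to the constitutive one in its place needs no scaling between arrays. The log2 ratio of Psmb9 to Psmb6 was -2.77 ± 0.33 (SD, n = 4) in young_AL, -2.35 ± 0.22 (SD, n = 3) in old_AL and -2.72 ± 0.18 (SD, n = 4) in old_CR. That of Psmb8 to Psmb5 was -5.72 ± 0.42, -5.16 ± 0.20 and -5.50 ± 0.23, with the same n. Their differences with age, 0.43 and 0.56, had p = 0.114 each in a two-sided exact permutation test over arrays (adjusted p = 0.171 over 9 tests), and the groups overlapped. The ratio of Psmb10 to Psmb7 was lower without overlap in old_CR, at 0.11 ± 0.017, than in old_AL at 0.16 ± 0.029 and young_AL at 0.18 ± 0.024. Its p of 0.0286 in either comparison is the smallest that 3 or 4 arrays against 4 allow, and became 0.129 after adjustment. So 0 of the 9 tests passed. Values of ratios are of probe signals, and their changes, not their sizes, can be read.

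**Figure D4:**
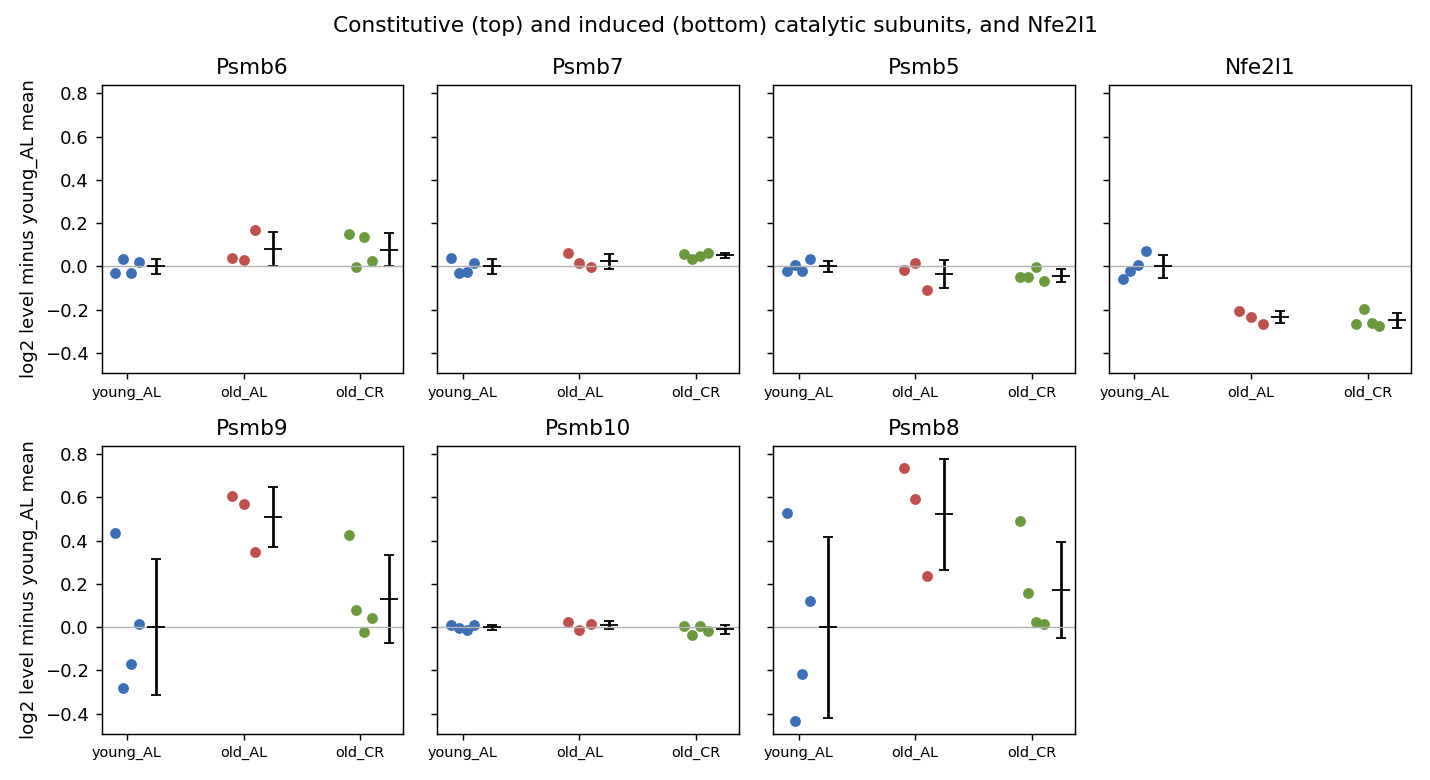
Log2 level of the constitutive catalytic subunits Psmb6, Psmb7 and Psmb5, the induced subunits below them that take the same place, and the activator Nfe2l1, minus the mean over the 4 young arrays. Points are arrays (11 in all), and bars the mean and SD of a group; Nfe2l1 has the old groups apart from the young group, and Psmb9 and Psmb8 the widest spread.

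Of the wider pathway, 48 genes were listed by role, of which 39 had a probe and were tested. With age 1 fell and 0 rose, with restriction 0 passed, and between old_CR and young_AL 1 fell and 0 rose. At an unadjusted p under 0.05 (limma), 7 of the 39 were higher and 7 lower with age, beside 3030 and 1772 of the 20848 genes tested. With restriction 3 were higher and 5 lower, beside 1455 and 4025 of all genes. Between old_CR and young_AL 3 were higher and 2 lower, beside 1424 and 2397. Of all genes tested 2.99%, 1.06% and 2.32% passed at the adjusted threshold. The shares of the 39 that passed are near this background and not a result about the list. The gene that fell was Nfe2l1 in both comparisons. It read 0.73, 0.77, 0.80 and 0.86 in young_AL, 0.58, 0.56 and 0.53 in old_AL, and 0.53, 0.59, 0.53 and 0.52 in old_CR. All 7 old arrays fitted lay below all 4 young arrays, and the old groups overlapped each other. Against young_AL, Nfe2l1 fell by 0.24 ± 0.039 in old_AL (adjusted p = 0.0246, limma) and by 0.25 ± 0.036 in old_CR (adjusted p = 0.0151). Between the old groups it differed by -0.01 ± 0.039 (95% interval -0.10 to 0.07).

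The call on Nfe2l1 did not hold in each fit. On 12 arrays the differences were -0.30 ± 0.084 and -0.25 ± 0.084 with adjusted p = 0.475 and 1.0 (limma), where old_AL 1 read 0.31. The call with age ended in 4 of the 11 fits without 1 further array (young_AL 2, young_AL 3, old_AL 3 and old_AL 4; adjusted p = 0.0550, 0.0762, 0.0501 and 0.0525), and that in old_CR in 3 (young_AL 3, old_CR 1 and old_CR 4; adjusted p = 0.0566, 0.0560 and 0.0563). Where a call ended, its difference stayed between -0.22 and -0.25. The fit without young_AL 3 is among those of both comparisons. Both comparisons share the young arrays and their slide.

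Other activators of the pathway did not pass. Nfe2l2, the related factor of the oxidative response, differed by 0.02 ± 0.043 with age, and Ngly1, the glycosidase that Nfe2l1 needs to become active, by -0.06 ± 0.043. Akirin2, which brings the proteasome into the nucleus, read lower in all old_AL arrays than in the young arrays, at -0.13 ± 0.036 (adjusted p = 0.0749, limma). The shuttle proteins Ubqln1 and Ubqln2 differed with age by -0.14 ± 0.041 (adjusted p = 0.0846) and -0.13 ± 0.041 (adjusted p = 0.114), both without overlap. Among caps, Psme3, the nuclear activator, was 0.15 ± 0.053 higher with age and 0.17 ± 0.049 higher in old_CR than in young_AL, without overlap in either (adjusted p = 0.134 and 0.111), while Psme4 differed by -0.13 ± 0.041 with age (adjusted p = 0.117). Psme1 and Psme2, which form the interferon-induced cap, differed by 0.23 ± 0.081 (adjusted p = 0.144) and 0.04 ± 0.040 with age. With restriction the Vcp cofactor Nploc4 differed by 0.26 ± 0.067 (adjusted p = 0.0763), without overlap.

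Markers of other cells moved between the same groups. Of 12 macrophage markers 4 rose with age (Cd163, Mrc1, Lyve1 and Gpnmb), and the median difference over all 12 was 1.0. The summed level of the 12 ran from 7.90 to 11 times the 75th percentile in young_AL, 12.2 to 17.4 in old_AL and 10.01 to 13.4 in old_CR. All 12 were above background on every array. Of 8 T cell markers 1 rose (Cd8a), and the summed levels of all 8 were 0.329 to 0.429, 0.485 to 0.635 and 0.384 to 0.606. Sensory neuron markers summed to 612 to 652, 608 to 648 and 582 to 616 over 12 genes, of which Nefl, Nefh and Isl1 fell with age. Their differences with age were below 0 for 7 of the 12 and above 0 for 5, with Tac1 highest at 0.19. With age 2 of 5 neutrophil markers rose (Camp and Ngp), and 0 passed on the lists of satellite glia, myelinating Schwann cells, red cells, fibroblasts, endothelium and muscle. With restriction Isl1 rose and the glial transporter Slc1a3 fell. Of the 12 sensory neuron markers, 7 were below 0 and 5 above with restriction, with a median of -0.04. Of the 6 satellite glia markers 5 were below 0 and 1 above. Between old_CR and young_AL Nefl, Nefh, the satellite glia markers Fabp7 and Slc1a3 and the fibroblast marker Col1a1 fell, and Lyve1, Gpnmb and Camp rose. Whole lists were more mixed there. Differences were below 0 for 9 of 12 sensory neuron, 4 of 6 satellite glia and 2 of 6 fibroblast markers. The fibroblast median was 0.01, with 4 of the 6 above 0. Above 0 were also 12 of 12 macrophage and 4 of 5 neutrophil markers. In that comparison 0 of 8 myelinating Schwann cell markers passed, while 7 were lower at an unadjusted p under 0.05 (limma). At that unadjusted threshold 2397 of the 20848 genes tested were lower. On 12 arrays 0 of these markers passed (limma). There 6 of the 12 macrophage markers had an unadjusted p under 0.05 with age (limma), beside 1416 of the 20848 genes tested. In whole ganglia, fewer cells of a type and less RNA per cell cannot be told apart, and the part of these cells in the proteasome values was not tested.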

How the data were processed

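L6 ganglion RNA from 12 rats was labelled with Cy3 and hybridised to Agilent arrays for rat with 1 colour, as the labels' protocols say. The deposited values are spot intensities that the authors' software, Agilent Feature Extraction 10.7, made from each scan (background-subtracted processed signal), per the file headers and, for its version, per the submitters' processing notes. Their series table held the same deposited intensities, with a largest difference of 0, linear and not centred. The log2 of the processed intensity minus that of each array's 75th percentile was computed here. Flagged outlier spots were dropped, replicate spots averaged, and probes well above background (at least a share of 0.5 of spots) on fewer than 4 arrays left out. The brightest probe stood for a gene, named through RefSeq (17998 of 30367 probes matched 15154 symbols; unmatched accessions were tested as such). Replicate numbers follow the labels' source names and do not pair rats (same-number correlations -0.09 to 0.09).

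Groups were compared with limma 3.58.1 in R 4.3.3 (lmFit, eBayes, a mean per group, adjusted p threshold 0.05) on 11 arrays. The fit was also run on simulated data with independent noise. Differences planted there were larger than any of the 33 members other than Psma8, so that run does not cover their sizes. Arrays give no counts, so their number limits the precision. The members and lists were chosen with earlier results of these data known. Named genes are the catalytic subunits, the 3 largest rises and falls per comparison, and pathway genes past the threshold or among the 3 smallest p of their list; members without overlap were added after their values were seen. Alternatives were all 12 arrays, quantile normalization, median centring, normexp (offset 50, on median spot signals), 2 filters, the mean of probes, compared groups alone, array weights, the replicate block, each array left out, and, added after seeing the data, centring on the members.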

Additional observations from a re-analysis of the deposited data

Results flagged for a closer look

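In 76 groups of 4 arrays or values examined for one that stands far from the rest, 4 did, and chance alone marks about 1 group in 20. The level of the ATPase Psmc2 was 4.39 on old_CR 2, against 4.50 to 4.52 on the other 3 old_CR arrays. The level of the lid subunit Psmd7 was 1.46 on young_AL 3, against 1.37 to 1.38 on the other young arrays. The level of Nfe2l1 was 0.594 on old_CR 2, against 0.519 to 0.531 on the other old_CR arrays, and stayed below all young arrays. The 75th percentile of signal was 7327 on old_AL 1, against 2627 to 2733 on the other old_AL arrays.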

How the results depend on the processing

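The fits cover 2 slides, 1 ganglion level and 3 old_AL arrays, so slide, row and the lost array limit each comparison. Values come in the order age, restriction and old_CR against young_AL, and where fewer are given the comparison is named; the cause of these shifts was not tested. Constitutive subunits called were 0, 0 and 0, and became 1 with age under quantile normalization (Psma3 fell), 11 with age and 19 with restriction under median centring, 2 with age (Psma3 fell, Psma8 rose) and 6 with restriction (5 rose, Psma8 fell) under normexp, and 1, 2 and 1 under array weights (Psma3; Psma3 and Psmd14; Psmd7). The members' median difference became 0.0707 and -0.0208 with age and restriction on 12 arrays, -0.194 and 0.211 under median centring, and with restriction 0.0783 under normexp and 0.00523 when centred on the members. The change in log2 ratio of Psmb9 to Psmb6 became 0.0118 and 0.0412 with age and restriction on 12 arrays, that of Psmb10 to Psmb7 0.576 and -0.638 on 12 arrays, and under normexp 0.0301 with age and -0.00324 between old_CR and young_AL.

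All genes called were 624, 222 and 484, and became 6, 1 and 3 on 12 arrays, 1067 with age and 393 with restriction under quantile normalization, 3404, 3303 and 191 under median centring, 3422 with age and 4202 with restriction under normexp, and 945, 1269 and 1778 under array weights. They became 123 with restriction and 211 between old_CR and young_AL with no filter, 343 with restriction for probes above background on every array, 27, 0 and 855 for the compared groups alone, and 1384 with restriction when centred on the members. Higher calls made up 61.9%, 24.3% and 32.4%, against 22.9%, 69.5% and 35.7% under quantile normalization, 9.43%, 92.2% and 35.1% under median centring, and 76.7%, 20.7% and 39.4% under normexp. With the replicate number as a block, all genes called were 20, 1 and 21 and members called 0; Nfe2l1 then had adjusted p = 0.0859 and 0.0904 against young_AL (limma), a block that rests on numbers that do not pair the rats. Nfe2l1 also missed the threshold with age when the compared groups were fitted alone (adjusted p = 0.115) and between old_CR and young_AL under median centring (adjusted p = 0.170).

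Without 1 further array, members called ranged from 0 to 0, 0 to 1 (Psmd14, without old_AL 2) and 0 to 0, and all genes called from 67 (without young_AL 2) to 392, 1 (without old_CR 4) to 931 (without old_AL 2), and 40 (without young_AL 3) to 875 (without old_AL 4). Psmb9 passed with age without young_AL 1 (0.65, adjusted p = 0.0492, limma).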
